A study of Drosophila melanogaster with 16 samples.

Results

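The trypsin and Jonah genes of Drosophila melanogaster encode serine proteases of the digestive tract. The set described here held all protein-coding genes whose symbol began with Jon and a digit or ended in Try, together with Phae1, Phae2 and Ser6. This rule gave 30 of 13619 protein-coding genes: 16 Jonah genes, 11 trypsins, Phae1, Phae2 and Ser6. No measured value entered it. A transcript of Jon74E under its current identifier was not found, so Jon74E was not analysed here and 29 genes remained. All tissue came from adult mated Canton-S females that were reared axenically. RNA was measured in 3 libraries of crop with its ducts, 3 of salivary gland (SG) and 5 of proventriculus (PV), all from flies given the Lactiplantibacillus plantarum strain LpWF as adults, and in 5 libraries of PV from flies kept axenic. Each library came from a pool of dissected organs, where the bulk PV was cut towards the midgut is not given in the sources used here, and nothing in the labels says that pools came from separate rearings, so p-values measure the spread between these pools only. Crop and SG had no axenic libraries, and the effect of LpWF could be tested in the PV alone.

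Proteases of this family cut proteins with a catalytic serine and are secreted as inactive precursors. Trypsins cut after lysine or arginine, and the Jonah and Phae genes encode relatives that are mostly of the chymotrypsin type. Their best known site of expression is the midgut, where enterocytes of different regions make different sets of them and where peptides from their activity are taken up. The authors' single-cell data also place several of them in the posterior PV. There, Phae2 and the amylase gene Amy-p belong to a cell cluster, and alphaTry, betaTry, epsilonTry, kappaTry, Jon65Aiii, Jon65Aiv and Jon99Cii to another. In larvae, L. plantarum is known to raise intestinal peptidase genes. The crop stores food behind a cuticle and a muscle wall, the SG secretes saliva, and the PV is a valve at the entry of the midgut whose cells secrete the peritrophic matrix, the sleeve of chitin and glycoprotein that lines the midgut.

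The genes lay in few places of the BDGP6 genome. All 11 trypsins stood on chromosome 2R between 11336840 and 11357537, a stretch of 20698 bases with 14 protein-coding genes in all. The other genes there were CG13202 and a pair of trypsin copies without a trypsin symbol, CG30031 and CG30025. Jon25Bi, Jon25Bii and Jon25Biii lay together on 2L from 4949941 to 4955144, and Phae1 and Phae2 on 2L from 12109417 to 12112256. The 4 Jon65A genes spanned 6039155 to 6054443 on 3L, the Jon66C pair 8391540 to 8393649 on 3L, the 3 Jon99C genes 29922216 to 29926189 on 3R and the Jon99F pair 30487016 to 30489895 on 3R. Jon44E on 2R and Ser6 on X stood alone. Several of these genes are near-identical copies, among them alphaTry with betaTry, gammaTry and deltaTry with CG30031 and CG30025, and Jon99Cii with Jon99Ciii. Salmon divides reads that fit several copies, so the split within each of these groups is uncertain.

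Between 18186391 and 45500807 reads per library were assigned to genes. Levels are given as coding TPM, the deposited TPM (transcript abundance corrected for length) summed per gene and rescaled so that all protein-coding genes of a library add up to 1000000. The proteases took 4595 to 80108 reads in crop libraries, 741 to 1142 in SG libraries, 33871 to 805576 in PV LpWF libraries and 85295 to 358514 in PV axenic libraries. The PV libraries differed in reads on ribosomal RNA genes, which were over 25% of the total in 4 of them: PV LpWF replicates 4 (38.9%) and 5 (34.5%), and PV axenic replicates 4 (43.4%) and 5 (27.9%). In the other 6 PV libraries this share was under 25%, with 15.3% as the lowest. PV LpWF replicate 4 stood apart from the other 9 PV libraries in many of the proteases, and results that rest on it are given with and without it. The 9 PV epithelium markers were at 1 coding TPM or more in every PV library, the 8 muscle markers in every crop library and the 5 salivary gland markers in every SG library. This limit does not tell the tissues apart. All 8 muscle markers passed it in every PV library too, and all PV epithelium and salivary gland markers in crop replicates 1 and 2. Jhbp14 had 5.14 to 7.58 coding TPM in SG, against 1170 to 1363 in crop, and CG4267 224 to 264 in crop, against 31.3 to 42.1 in the PV. The sums of the muscle and PV epithelium lists, given below, did differ between crop and PV. In bulk RNA, fewer cells of a type and less RNA per cell cannot be told apart.

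Together the proteases took 0.0427, 0.227 and 0.824% of the coding TPM in crop replicates 1 to 3. In SG they took 0.00100, 0.00114 and 0.00148%. In PV LpWF replicates 1 to 5 the share was 2.01, 2.21, 1.53, 5.44 and 0.287%, against 1.81, 1.39, 1.72, 0.596 and 0.473% in PV axenic replicates 1 to 5. The PV groups overlapped, and both the highest and the lowest PV value belonged to flies given LpWF. Crop replicate 3 lay above PV LpWF replicate 5, so crop and PV overlapped too. Every SG library lay below every crop library, by a factor that cannot be divided between tissue and library kit, because SG libraries were made from poly(A)-selected RNA and the others from RNA depleted of ribosomal RNA.

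**Figure D1:**
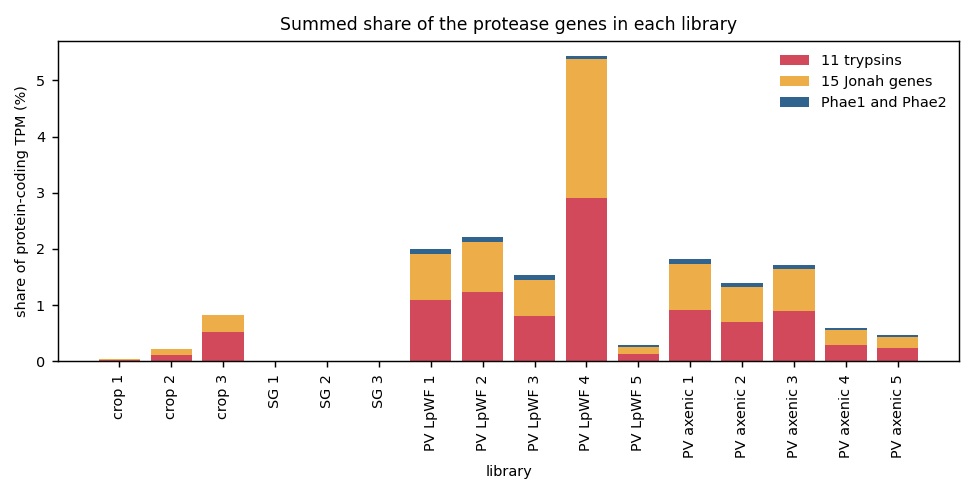
Bars show the share of the coding TPM (y axis, in percent) taken by the 11 trypsins, the 15 measured Jonah genes and the Phae pair in each of 16 libraries (x axis). PV LpWF replicate 4 stands at 5.44%, the other 9 PV libraries between 0.287 and 2.21%, crop at 0.0427 to 0.824% and SG at or under 0.00148%.

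A total of 18 genes averaged 1 coding TPM or more in crop, 3 in SG, 24 in PV LpWF and 14 in PV axenic. Without replicate 4 the count in PV LpWF was 17. The trypsins supplied 53.6 ± 7.8% of the protease total in crop and 28.3 ± 5.8% in SG (SD, n = 3 libraries each). They supplied 52.1 ± 4.0% in PV LpWF and 50.1 ± 1.7% in PV axenic (SD, n = 5 libraries each). The Jonah genes supplied 43.2 ± 5.3% in crop, 70.8 ± 5.9% in SG, 42.5 ± 2.0% in PV LpWF and 44.3 ± 1.6% in PV axenic. The balance of the 2 families in the PV thus varied far less between libraries than the total did.

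**Figure D2:**
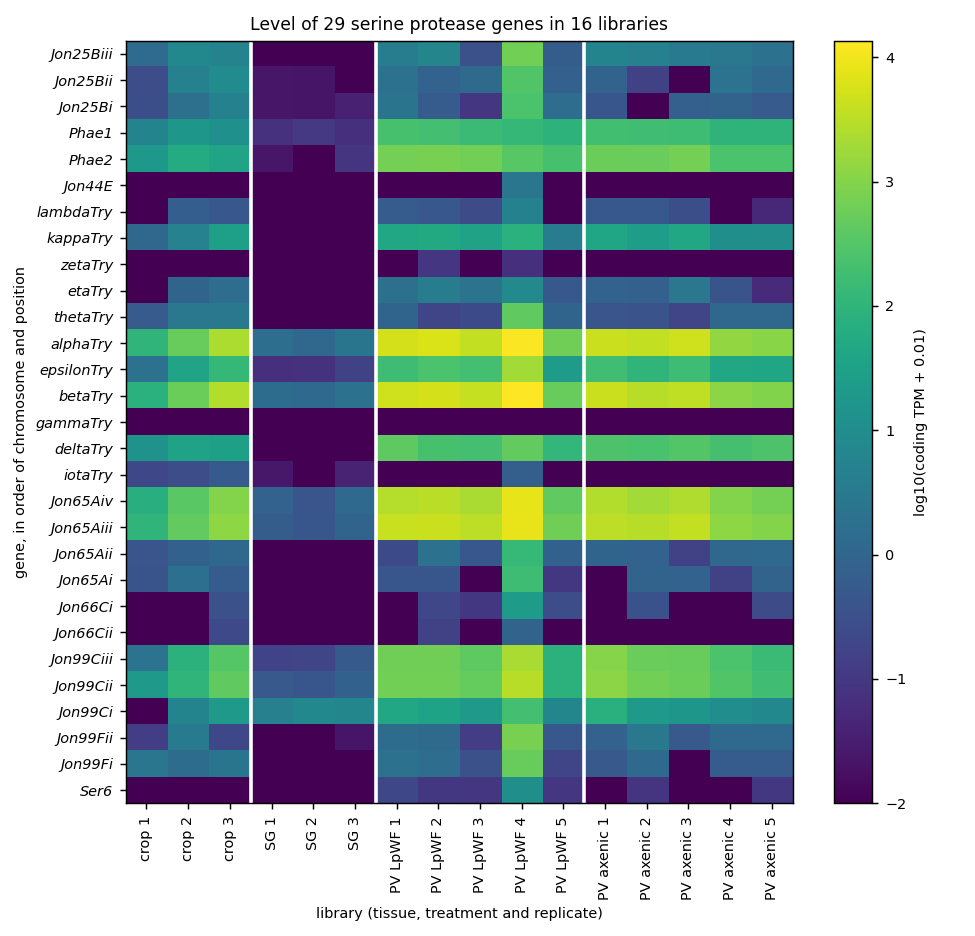
Each row is 1 of the 29 measured genes in order of chromosome and position, each column is a library, and the colour gives log10(coding TPM + 0.01). Rows such as alphaTry and Jon65Aiii are bright in every PV library. Rows such as Jon25Biii and Jon99Fii are far brighter in PV LpWF replicate 4 than in any other library. In SG no gene passes 7.37 coding TPM, the value of Jon99Ci in SG replicate 2.

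alphaTry and betaTry, trypsins that lie on either side of epsilonTry, had the highest means of the set in both PV groups, although Jon65Aiii was above betaTry in 5 of the 10 PV libraries. alphaTry had 5452, 6243, 3743, 12743 and 639 coding TPM in PV LpWF replicates 1 to 5, against 4422, 3697, 4866, 1369 and 1102 in PV axenic replicates 1 to 5. betaTry had 4759, 5478, 3824, 13555 and 516 coding TPM in PV LpWF, against 4304, 2959, 3606, 1196 and 926 in PV axenic. Both were highest in PV LpWF replicate 4 and lowest in PV LpWF replicate 5, and the axenic values lay between these. In PV LpWF replicate 4 betaTry ranked 6th and alphaTry 7th among all protein-coding genes, and in the other 9 PV libraries alphaTry ranked between 15th and 148th.

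epsilonTry, another trypsin, had 168, 252, 200.5, 1869 and 23.6 coding TPM in PV LpWF, against 179, 104, 166, 46.6 and 43.1 in PV axenic. Its replicate 4 value was 7.40 times the next highest PV value, against 2.04 times for alphaTry and 2.47 times for betaTry. deltaTry had 405, 228, 204, 445 and 114 coding TPM in PV LpWF, against 266, 236, 308, 211 and 266 in PV axenic. Its range in the PV was 3.90-fold from lowest to highest library, against 19.9-fold for alphaTry. The copies of deltaTry were uneven in the tables: CG30031 had 69.5 to 265 coding TPM in the PV, CG30025 was at 0 in 9 of 10 PV libraries, and gammaTry was listed at 0 in all 16 libraries. kappaTry had 4.07 to 82.0 coding TPM across the PV libraries. etaTry and lambdaTry stayed at or under 7.57, and zetaTry and iotaTry under 1.

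Of the Jonah genes, Jon65Aiii and Jon65Aiv were the most abundant in the PV. Jon65Aiii had 4107, 4346, 3328, 8570 and 629 coding TPM in PV LpWF, against 3276, 2998, 3772, 1248 and 991 in PV axenic. Jon65Aiv had 2823, 3206, 2232, 7920 and 436 coding TPM in PV LpWF, against 2633, 1945, 2488, 976 and 703 in PV axenic. Each repeated the order of the trypsins, with PV LpWF replicate 4 on top and PV LpWF replicate 5 at the bottom. Jon99Cii had 661, 670.2, 474, 3050 and 85.8 coding TPM in PV LpWF, against 1145, 666, 567, 291 and 174 in PV axenic. Its near-copy Jon99Ciii had 622, 648, 399.9, 2197 and 85.1 coding TPM in PV LpWF, against 1033, 539, 503, 242 and 149.5 in PV axenic. Apart from PV LpWF replicate 4, the highest values of this pair were in PV axenic replicate 1. Jon99Ci, the third gene of that cluster, ran at a lower level, from 6.50 to 198 coding TPM in the PV.

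Phae1 and Phae2, a tandem pair of chymotrypsin-type genes, did not share the peak of replicate 4. Phae2 had 726, 749, 686, 355 and 229 coding TPM in PV LpWF, against 572, 551, 707, 254 and 247 in PV axenic. Phae1 had 224, 202, 155, 122 and 93.7 coding TPM in PV LpWF, against 186, 178, 169, 94.9 and 99.1 in PV axenic. For both genes PV LpWF replicate 4 lay inside the range of the other 9 libraries, at 0.473 times their highest value for Phae2 and 0.547 times for Phae1. Per coding TPM, alphaTry exceeded Phae2 by 35.9-fold in that library and by 2.80- to 8.33-fold in the other 9. Both transcripts of each Phae gene were read: Phae1-RB carried 46.1 to 63.7% of the reads of its gene over the PV libraries, and Phae2-RB carried 89.1 to 92.1%.

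A group of 11 genes, by contrast, was high in PV LpWF replicate 4 and low elsewhere. They were picked by a limit set after the values were seen: at least 1 coding TPM there and more than 10 times the highest of the other 9 PV libraries. The limit was passed by thetaTry, a trypsin, by Ser6, and by Jon25Bi, Jon25Bii, Jon25Biii, Jon44E, Jon65Ai, Jon65Aii, Jon66Ci, Jon99Fi and Jon99Fii. Jon99Fii had 1.44, 1.28, 0.122, 737 and 0.463 coding TPM in PV LpWF, against 0.816, 2.83, 0.503, 1.25 and 1.25 in PV axenic. Jon25Biii had 3.72, 6.23, 0.319, 671 and 0.639 coding TPM in PV LpWF, against 5.98, 4.65, 3.28, 2.92 and 1.94 in PV axenic. Jon99Fi had 1.98, 1.54, 0.321, 514 and 0.183 coding TPM in PV LpWF, against 0.506, 1.26, 0, 0.612 and 0.605 in PV axenic. In each case 1 library carried nearly all of the signal of 10.

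The other members of this group behaved alike. thetaTry, named here for the largest ratio, reached 425 coding TPM in PV LpWF replicate 4 and at most 1.19 in the other PV libraries, a ratio of 358. The lowest ratio that could be formed was that of Ser6, 54.8, with 11.1 coding TPM against at most 0.203. Jon44E was read at 2.48 coding TPM (39 reads) in that library and at 0 in the other 15, where 3 reads, the number that a count of 0 allows, would be 0.0355 to 0.354 coding TPM. That floor covers counting error only. Summed, the 11 genes held 3231 coding TPM in PV LpWF replicate 4, which was 5.95% of the protease total there, and 2.99 to 13.3 coding TPM in the other 9 PV libraries. Just below the limit were epsilonTry at 7.40 times and lambdaTry at 8.19 times the highest of the other 9.

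Over all protein-coding genes, 123 passed the same limit in PV LpWF replicate 4, which is 0.903%, against 37.9% of the proteases. In each of the other 9 PV libraries, between 0 and 7 coding genes passed it, and no protease did. For these 9 the libraries to be exceeded included PV LpWF replicate 4, so a gene highest in replicate 4 could not pass. The counts of the 9 are therefore no measure against that of replicate 4. The genes that passed followed the map in part. All 3 Jon25B genes and both Jon99F genes were among them, none of the Jon99C genes or the Phae pair was, and the Jon65A and Jon66C clusters were divided. Jon65Ai and Jon65Aii were in the group and Jon65Aiii and Jon65Aiv outside it, and Jon66Ci passed at 75.3 times the highest other PV library while Jon66Cii did not at 5.95 times. In the trypsin cluster thetaTry passed, while its neighbours etaTry and alphaTry did not.

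**Figure D3:**
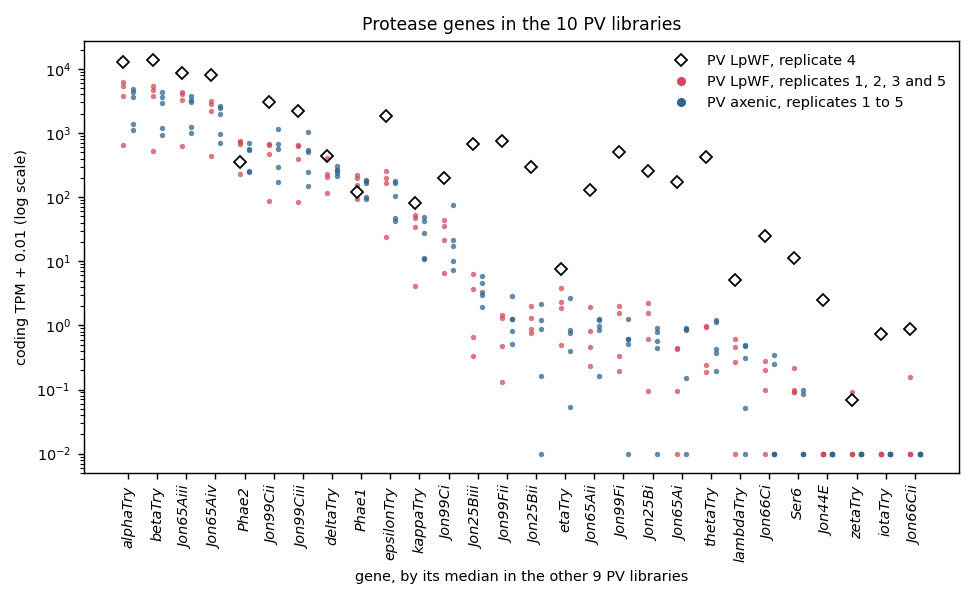
Each gene with any read in the PV is shown on the x axis in the order of its median over 9 PV libraries, with coding TPM + 0.01 on a log y axis. Open diamonds mark PV LpWF replicate 4, red points the other 4 PV LpWF libraries and blue points the 5 PV axenic libraries. Diamonds sit at 129 to 737 for 8 genes whose other points do not pass 6.23, and lie within the other points for Phae1 and Phae2.

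Other values moved with that library. Of 10 midgut enterocyte markers, 4 passed the same limit, and all 10 reached 1 coding TPM there, against 6 or 7 in each other PV library. The 4, named after their values were seen, were Npc1b, mag, Mal-A7 and Mal-A8, and mag, a lipase gene, had 35.7 coding TPM in that library and at most 0.581 in the other PV libraries. The summed level of the midgut list was 17486 coding TPM there and 13911 to 26252 in the other 9 PV libraries. Most of it came from the amylase pair Amy-p and Amy-d, which were not at their highest there. Since the authors report Amy-p in posterior PV cells, the sum of this list does not mark midgut cells alone. The 9 PV epithelium markers summed to 23310 coding TPM there and 16638 to 33957 in the other 9. None of the 9 passed the limit, and neither did any marker of muscle, salivary gland, fat body, hemocytes and nephrocytes, or ovary and spermatheca, while 1 of 7 enteroendocrine and stem cell markers did. That library also had a share of ribosomal RNA reads of 38.9%. In PV axenic replicate 4 this share was 43.4%, and the group of 11 proteases summed to 10.3 coding TPM. The part of these in the result was not tested.

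Of the other 18 genes, 6 were below 1 coding TPM in at least 1 PV library and 12 had at least 1 coding TPM in each: alphaTry, betaTry, deltaTry, epsilonTry, kappaTry, Jon65Aiii, Jon65Aiv, the 3 Jon99C genes, Phae1 and Phae2. Over the 9 PV libraries without LpWF replicate 4, their log2(coding TPM + 1) values followed alphaTry with a Pearson correlation of 0.85 to 1.00, apart from deltaTry at 0.68. Phae2 stood at 0.97 and Phae1 at 0.95 in this description. With replicate 4 included Phae2 stood at 0.71 and Phae1 at 0.70, while Jon65Aiii was at 1.00 and Jon65Aiv and betaTry at 0.99. The points share library, depth and the total to which TPM is scaled, so no p-value is given. Amy-p, an amylase gene outside the set, correlated with alphaTry at 0.93 over the 9 libraries and 0.63 over 10.

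**Figure D4:**
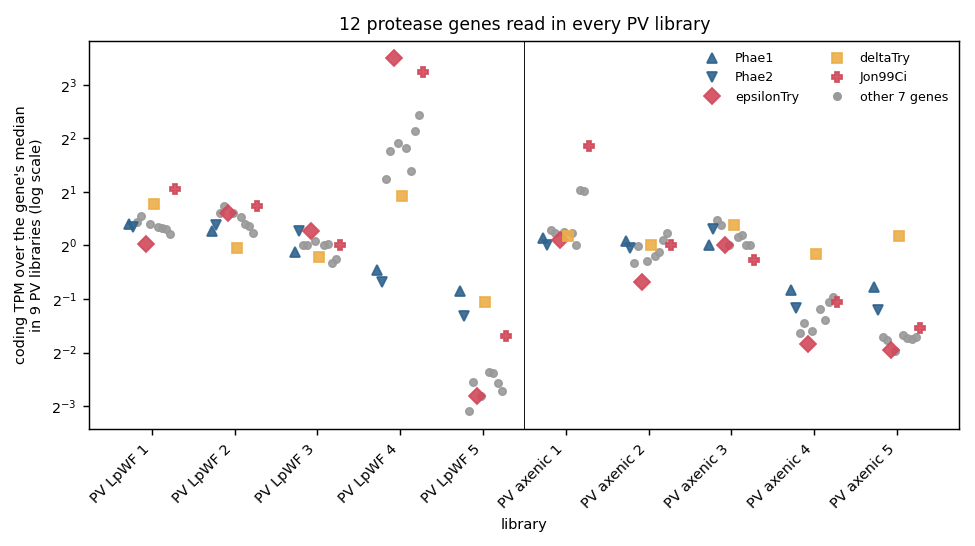
For the 12 genes with at least 1 coding TPM in each PV library, the y axis gives coding TPM over the median of the gene in 9 PV libraries on a log scale, and the x axis gives the 10 PV libraries. Most genes lie together within a library and are low in PV LpWF replicate 5 and in PV axenic replicates 4 and 5. In PV LpWF replicate 4 epsilonTry stands 11.3-fold and Jon99Ci 9.39-fold above the median, and Phae2 stands at 0.620 of it.

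Whether LpWF changed these genes in the PV was tested with edgeR over all genes. None of the 21 proteases that passed the filter on low counts was called at an adjusted p under 0.05, where 0.0107% of 9360 genes, 1 gene, was called. That gene was CG31705, named for being the only one. At an unadjusted p under 0.05 there were 7 of the 21 proteases, and 908 of the 9360 genes. With DESeq2 0 of the 14 proteases that it gave an adjusted p were called, where 51 of 9939 genes were. DESeq2 gave those 7 no p-value, so it did not test them. The 8 measured proteases outside the 21 did not pass the edgeR filter. No protease had all PV LpWF libraries above all PV axenic libraries in coding TPM, and none had all below, where 1.82% and 0.344% of coding genes did so.

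All 21 fold changes were above 0, with a median of 1.11 on the log2 scale, against 0.0045 over all genes. This direction came with replicate 4. Without it, 13 of 21 were above 0, the median was 0.17, and no protease had an unadjusted p under 0.05, where 810 of 9461 genes did. The 7 were thetaTry and 6 Jonah genes, all from the group of 11. Jon99Fi had a log2 fold change of 7.42 (SE 2.66, adjusted p = 0.495), and 0.61 (SE 0.90, adjusted p = 0.851) without replicate 4. Jon99Fii had 6.80 (SE 2.61, adjusted p = 0.495), and -0.77 (SE 0.70, adjusted p = 0.750) without it. Jon25Biii had 5.12 (SE 2.14, adjusted p = 0.500), and -0.59 (SE 0.71, adjusted p = 0.818) without it.

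The abundant genes did not pass the test with or without that library. alphaTry had a log2 fold change of 0.79 (SE 0.72, adjusted p = 0.768), and 0.23 (SE 0.68) without replicate 4. betaTry had 1.01 (SE 0.76), epsilonTry 2.14 (SE 1.07), Jon65Aiii 0.66 (SE 0.62), Jon65Aiv 0.82 (SE 0.68) and Jon99Cii 0.70 (SE 0.88). Phae2 had 0.10 (SE 0.39, adjusted p = 0.960) and Phae1 0.03 (SE 0.25, adjusted p = 0.979), with the smallest standard error of the set. Among the 6 PV libraries of less ribosomal RNA the median log2 fold change of the proteases tested was 0.08, with 12 above 0 and 8 below, and among the 4 of more ribosomal RNA, which hold LpWF replicates 4 and 5, it was 3.08.

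In crop, the second comparison, 20 proteases passed the filter and 5 were called, all lower in crop than in PV LpWF. Phae1, Phae2, deltaTry, Jon65Aiii and Jon65Aiv were these. Over all genes 25.5% of 9713 were called lower in crop, 26.1% higher and 51.6% in either direction, so the count for the proteases is close to the share of all genes. The 2 comparisons use the same 5 PV LpWF libraries. All 20 fold changes were below 0, with a median of -4.29 on the log2 scale against 0.01 over all genes. Without replicate 4, 15 of 19 were below 0, the median was -2.50, and 4 were called. The fold changes are relative to TMM scaling, and on the coding TPM scale the median gene was 0.91 higher in crop (log2).

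Phae2 had 18.7, 58.4 and 37.2 coding TPM in crop replicates 1 to 3, all below the lowest PV LpWF value of 229. Its log2 fold change was -4.78 (SE 0.62, adjusted p = 5.3e-04), and -4.89 without replicate 4. Phae1 had 5.95, 17.4 and 12.2 coding TPM in crop, against 93.7 or more in PV LpWF, with a log2 fold change of -4.65 (SE 0.51, adjusted p = 2.1e-04). deltaTry had 13.3, 33.5 and 31.4 coding TPM in crop, against 114 or more in PV LpWF, with -4.39 (SE 0.63, adjusted p = 9.0e-04). By value 4 of 24 proteases lay lower in all crop than in all PV LpWF libraries, these 3 and Ser6, where 8.93% of coding genes did so. Ser6 had 0 reads in crop, which allows up to 0.354 coding TPM, and only 0.0808 to 0.203 in 4 of the 5 PV LpWF libraries, so a difference was not detectable at this depth.

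The most abundant proteases varied more among the crop libraries. alphaTry had 104, 517 and 2335 coding TPM in crop replicates 1 to 3, a 22.6-fold range, and crop replicate 3 lay above PV LpWF replicate 5. betaTry had 82.6, 558 and 2613 coding TPM, epsilonTry 1.88, 37.8 and 124, Jon99Cii 20.9, 105 and 423, and Jon99Ciii 2.20, 85.2 and 331. Jon65Aiii had 101, 459 and 1262 coding TPM in crop, with a log2 fold change of -3.76 (SE 1.13, adjusted p = 0.030). Jon65Aiv had 70.2, 361 and 994, with -3.78 (SE 1.24, adjusted p = 0.040), and it was not called without replicate 4 (adjusted p = 0.060). alphaTry, at -3.52 (SE 1.34, adjusted p = 0.065), betaTry, at -3.35 (SE 1.43), and epsilonTry, at -4.19 (SE 1.90), were not called by edgeR. DESeq2 called 13 of the 16 that it gave an adjusted p, all lower in crop, where 2809 of 11194 genes were called lower. It gave no p-value to Jon99Fii, thetaTry or any other gene of the group that was high in PV LpWF replicate 4 and low elsewhere. Its 13 of 16 and the 5 of 20 called by edgeR are thus counts over different sets of genes.

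The group of 11 was far lower in crop than in PV LpWF replicate 4, where its sum was 3231 coding TPM. Its sum was 5.98, 24.4 and 26.9 coding TPM in crop replicates 1 to 3, against 2.99 to 13.3 in the other 9 PV libraries. Crop replicates 2 and 3 thus lay above all 9. Jon99Fii had 0.116, 3.32 and 0.205 coding TPM in crop, and its log2 fold change of -8.05 (SE 4.09) was -0.46 (SE 1.21) without replicate 4. Jon25Biii had 1.39, 7.31 and 5.40 coding TPM in crop, with -5.87 (SE 3.18), and -0.18 (SE 1.00) without replicate 4. Jon99Fi had 2.58, 1.47 and 2.42 in crop, with -6.57 (SE 3.45), and 0.12 (SE 0.76) without replicate 4. Without that library none of the 3 differed by more than its standard error.

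Crop replicates differed in how proteases ran beside other gut genes. The muscle list, which marks the crop wall, summed to 16238, 14231 and 16509 coding TPM in crop replicates 1 to 3, against 1036 to 1363 in PV LpWF. The PV epithelium list summed to 2574, 5359 and 1079 coding TPM in crop, against 16638 to 29403 in PV LpWF, and the midgut enterocyte list to 590, 4428 and 1139, against 14654 to 24873. Both sums were thus highest in crop replicate 2, while alphaTry was highest in crop replicate 3. The midgut sum was mostly Amy-p and Amy-d, of which the authors report Amy-p in posterior PV cells. Of the 10 midgut markers, 6 were, like alphaTry, highest in crop replicate 3: Mal-A1, Mal-A6, Mal-A8, mex1, mag and Npc1b. Of these, Mal-A8, mag and Npc1b were low in crop, at most 1.20, 0.712 and 0.184 coding TPM. Phae2 and Phae1 were highest in crop replicate 2 as well. The ratio of alphaTry to Phae2 was 5.54, 8.84 and 62.8 in crop replicates 1 to 3. That of alphaTry to Muc68D, a mucin gene of the PV epithelium, was 0.0637, 0.150 and 4.07, against 0.0371 to 0.830 in PV LpWF. The part of PV or midgut cells in the crop values was not tested.

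**Figure D5:**
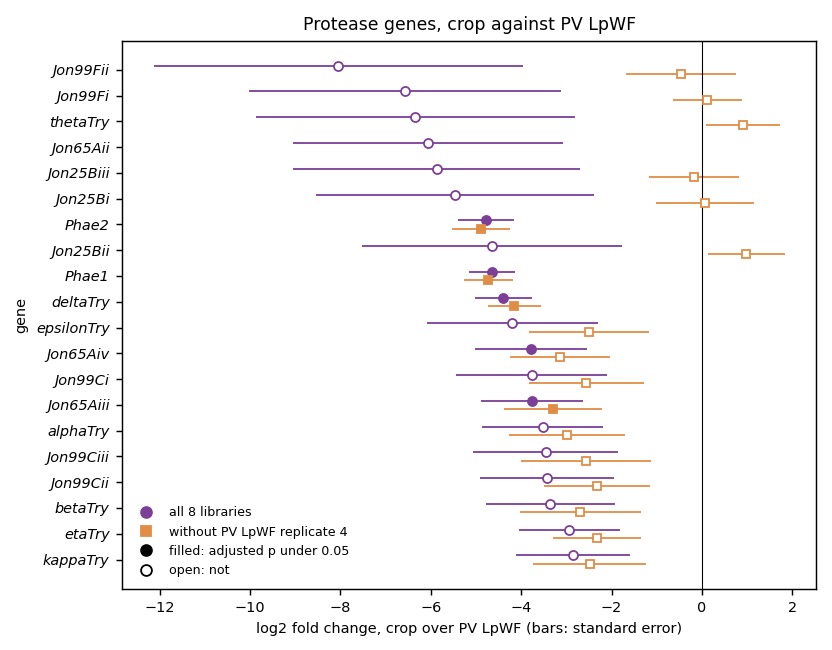
The x axis gives the log2 fold change of crop over PV LpWF with its standard error for the 20 proteases tested (y axis), from all 8 libraries (circles) and without PV LpWF replicate 4 (squares), filled at an adjusted p under 0.05. Phae1, Phae2 and deltaTry stay between -4.15 and -4.89 in both, while Jon99Fii moves to -0.46 and Jon99Fi to 0.12. Jon65Aii did not pass the filter without that library.

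Salivary glands held little of these transcripts, and 15 of 29 genes had 0 reads in all 3 SG libraries. Jon99Ci was the highest protease in SG, at 4.57, 7.37 and 6.42 coding TPM, and ranked between 1253rd and 1684th among coding genes. It had 0, 5.72 and 20.9 coding TPM in crop and 6.50 to 198 in the PV. alphaTry, the next in SG, had 1.62, 1.17 and 2.44 coding TPM there, and betaTry 1.50, 1.22 and 2.04. Jon99Ci was 43.4 to 64.8% of the protease total in SG. Ratios of this kind are taken within an SG library, while levels in SG and the other tissues differ also by library kit. Jon99Cii and Jon99Ciii, the neighbours of Jon99Ci, had at most 0.800 coding TPM in SG. Amylase transcripts were as low: alphaTry stood at 1.01 to 2.16 times Amy-p in SG.

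Other secreted serine proteases of the gut were read from a list. Of 21 listed, 18 matched a gene, and the most abundant in the PV were CG18180, yip7 and CG8952. yip7 had 36.2, 239 and 532 coding TPM in crop and 267 to 6606 in PV LpWF, against 463 to 1461 in PV axenic, with its maximum in PV LpWF replicate 4. CG18180 had 389 to 3267 coding TPM in PV LpWF, against 556 to 3790 in PV axenic, and like Phae2 it was not highest in replicate 4, where it had 1987. In replicate 4, 6 of the 18 passed the limit of 10 times the highest other PV library. For LpWF in the PV, edgeR called 0 of 11 tested (5 at an unadjusted p under 0.05, 0 without replicate 4) and DESeq2 called 0 of 7. Over all genes 908 of 9360 had an unadjusted p under 0.05 with edgeR. In crop 4 of 13 were called lower and none higher, where 25.5% of all genes were called lower and 26.1% higher. The count called lower is thus close to the share of all genes. The 4 were yip7 at -4.10 (SE 1.37), CG8952 at -3.41 (SE 1.16), CG11912 at -4.21 (SE 0.82) and CG18179 at -3.66 (SE 1.20). Without replicate 4, 2 of 12 were called lower and 1 higher, where 2441 of 9490 genes were called lower and 2504 higher.

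Secreted carboxypeptidases trim the peptides that such proteases release. CG12374 had 374 to 16088 coding TPM in PV LpWF, against 558 to 2158 in PV axenic, and its maximum was in replicate 4. CG17633 had 28.0 to 867 coding TPM in PV LpWF, against 53.8 to 284 in PV axenic. CG3097 had 270.5 to 391 in PV LpWF, against 312 to 389 in PV axenic, and 656 to 786 in crop. By edgeR it was not called in crop, at 0.19 (SE 0.16, adjusted p = 0.345). On the coding TPM scale the median gene was 0.91 higher in crop (log2). For LpWF in the PV, edgeR called 0 of 9 carboxypeptidases (2 at an unadjusted p under 0.05, against 908 of 9360 genes) and DESeq2 called 0 of 8. In crop, 4 of 9 were called lower and none higher, where 25.5% of all genes were called lower and 26.1% higher. Among the 4 were CG8560 at -5.02 (SE 1.15) and CG18417 at -4.21 (SE 0.67). CG2915, another of the 4 at -0.33 (SE 0.08), was not lower in coding TPM. It had 44.95 to 51.2 in crop, against 28.6 to 34.5 in PV LpWF.

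Serpins trap and inactivate serine proteases. Of 13 tested, 8 were called higher in crop than in PV LpWF and 4 lower, where 26.1% of all genes were called higher and 25.5% lower. Of the 4, Spn42Da at -0.47 (SE 0.15) was not lower in coding TPM, with 53.7 to 63.8 in crop, against 27.7 to 53.8 in PV LpWF. Spn88Ea was at 3.09 (SE 0.14), Spn43Ab at 2.35 (SE 0.12), Spn77Ba at 2.15 (SE 0.10) and necrotic (nec) at 1.84 (SE 0.11) on the log2 scale, and Spn42De was at -4.04 (SE 0.43). The list summed to 1278 to 1334 coding TPM in crop, against 281 to 365 in PV LpWF. For LpWF in the PV, 0 of 13 were called by edgeR (4 at an unadjusted p under 0.05, against 908 of 9360 genes) and 0 of 13 by DESeq2. Their sum was 281 to 365 coding TPM in PV LpWF, against 277 to 343 in PV axenic, and it was 287 in PV LpWF replicate 4.

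Among 12 genes for factors and signals known to bear on midgut digestive genes, 11 were tested. In crop 7 were called lower and 1 higher, where 25.5% of all genes were called lower and 26.1% higher. Of the 7, babo at -0.45 (SE 0.14) and Hr96 at -0.47 (SE 0.09) were not lower in coding TPM. babo had 10.96 to 12.8 coding TPM in crop, against 6.73 to 9.78 in PV LpWF. Hr96 had 14.2 to 15.4 in crop, against 8.47 to 11.8 in PV LpWF. GATAe, a GATA factor of the midgut, was at -3.85 (SE 0.62), nub, a POU-domain factor, at -3.78 (SE 0.35), srp, another GATA factor, at -2.66 (SE 0.34) and sug at -2.63 (SE 0.32), while Smox, a signal transducer of the activin pathway, was at 0.42 (SE 0.09). For LpWF in the PV none of 11 was called by edgeR (1 at an unadjusted p under 0.05, against 908 of 9360 genes) or by DESeq2. GATAe had 21.0, 25.6, 23.8, 35.8 and 24.3 coding TPM in PV LpWF replicates 1 to 5, against 23.8, 22.6, 22.8, 31.3 and 26.5 in PV axenic. Its spread across the PV libraries was thus narrow beside that of the proteases.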

How the data were processed

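The 16 libraries were sequenced by the authors as single-end reads and run through a Nextflow workflow with Salmon on the BDGP6 genome. The authors deposited, per transcript, estimated counts that are not normalized, TPM scaled by them over all transcripts, noncoding RNA included, and an effective length in bases. PV and crop RNA was depleted of ribosomal RNA, and SG RNA was poly(A)-selected.

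Values of 33704 transcripts were added up within each of 17039 genes of Ensembl release 115. The 271 transcripts without a gene there held 0.128 to 0.257% of reads and were left out. TPM was rescaled over 13619 protein-coding genes. Counts were rounded and tested with edgeR 4.0.16 on R 4.3.3 (TMM, filterByExpr, robust quasi-likelihood F tests, Benjamini-Hochberg adjustment over all genes tested), with calls at an adjusted p under 0.05. No test set SG against crop or PV, since its kit differed. Reads on ribosomal RNA were those on 46 genes with rRNA in their symbol. Correlations used a pseudocount of 1. DESeq2 1.42.0 was an alternative, and Python 3.11.15 with pandas 2.3.3 gave the levels. Other alternatives were size factors, filters, leaving out libraries, a term for ribosomal RNA, and other PV references.

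Genes and lists were chosen with earlier results of these data known. By the rule for named genes, values per library were given for proteases that averaged 100 coding TPM or more in a group or were called, and others were given by ranges and counts unless named as chosen later. Matched were 18 of 21 other proteases, 14 of 14 carboxypeptidases, 23 of 25 serpins and 12 of 12 regulators. Marker lists for enteroendocrine and stem cells, fat body, hemocytes and nephrocytes, and ovary and spermatheca were also read.

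Pairs of libraries within a group had a variance of at least 21.8 times that of counting alone, so none was a duplicate. On simulated data for PV LpWF against PV axenic the test recovered 38 of 62, 61 of 67 and 63 of 65 genes changed by 1, 2 and 3 on the log2 scale among 9196 genes, with 11 false calls. For crop against PV LpWF it recovered 36 of 64, 54 of 64 and 61 of 66 among 9545 genes, with 8 false calls. The changed genes were drawn at random from all genes, and no simulated library was set apart as PV LpWF replicate 4 was. These rates therefore do not carry over to the proteases, whose standard errors were often large (0.72 for alphaTry and 2.66 for Jon99Fi in the PV).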

Additional observations from a re-analysis of the deposited data

Results flagged for a closer look

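Dixon's test of a lone extreme value was run on log2(coding TPM + 1) for the protease sum and 13 genes in each PV group of 5 libraries, 28 tests in all, and chance marks about 1 in 20. It marked 3 genes, each for PV LpWF replicate 4 as the highest: Jon99Fii, where the gap to the next library was 0.881 of the whole range, Jon99Fi at 0.848 and Jon25Biii at 0.727, against a critical value of 0.71. These 3 genes averaged 100 coding TPM or more, the limit for being tested here, only through that library: their PV LpWF means were 148, 104 and 136 with it and 0.826, 1.01 and 2.73 without it. The marks thus restate how the genes were chosen and are no separate evidence. No PV axenic library was marked, and neither was the sum of the proteases.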

How the results depend on the processing

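No protease was called for LpWF in the PV under any alternative run. The count over all genes in that comparison, 1, was 51 with DESeq2, 34 with the replicate block, 14 with a term for ribosomal RNA, 0 among the libraries of more ribosomal RNA and 1 to 10 with a library left out, the 10 being without PV LpWF replicate 5. The 5 proteases called lower in crop, of 20 tested by edgeR, became 13 of 16 with DESeq2, which tested a different set. The edgeR count was 9 with all 10 PV libraries as reference. It was 3 with a filter of 1 count in any library and 3 with the replicate block. With a library left out the count was 3 to 7, and it was 3 without crop replicate 1, crop replicate 2, PV LpWF replicate 1 or PV LpWF replicate 2. Phae1, Phae2 and deltaTry were called in each of these fits, and the summed copies of deltaTry were called too (adjusted p = 0.0024). In 8 fits with a library left out, the count over all genes was 4260 to 4945. Jon65Aiii and Jon65Aiv lost their calls in some fits (leave-one-out adjusted p 0.020 to 0.098 and 0.029 to 0.123).

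In the PV comparison, leaving out a library moved the log2 fold change to between -0.59 and 5.44 for Jon25Biii, -0.77 and 7.24 for Jon99Fii, -0.42 and 1.12 for Jon99Cii, -0.12 and 0.14 for Phae1 and -0.051 and 0.28 for Phae2, and in crop to between -6.92 and 0.12 for Jon99Fi. Among libraries of less ribosomal RNA it was -0.59 for Jon25Biii, -0.66 for Jon99Fii, -0.55 for Jon99Cii and -0.0029 for Phae1. With the replicate block Jon99Cii was at -0.023, and with PV axenic as reference Jon99Fi in crop was at 0.71. The cause was not tested.

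Summed coding TPM, 3646 in crop, 12.1 in SG, 22942 in PV LpWF and 11999 in PV axenic, was 1348 to 5256, 10.7 to 13.1, 15089 to 27960 and 10462 to 13816 with a library left out. On the deposited TPM scale PV axenic was at 4812. SG was at 55.7 as TMM-normalized CPM and 8.73 without the 2 genes of highest mean.

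Same-numbered libraries of the PV groups had correlations of their deviations of 0.08, 0.11, 0.11, 0.02 and 0.44, so the numbers were not taken to pair libraries. Copies defined by protein identity were not summed, since no protein sequences were used. The sums of known copies and the fit without PV LpWF replicates 4 and 5 (5 called in crop) were chosen after seeing the data. Depth limits the genes with few reads, and 8 proteases were not tested in the PV and 9 in crop.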
